A study of Homo sapiens with 12 samples.

Results

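The 10 genes described here are PHGDH, PSAT1, PSPH, SHMT1, SHMT2, MTHFD1, MTHFD1L, MTHFD2, ALDH1L2 and PCK2. Apart from PCK2, their enzymes make serine from a glycolytic intermediate, convert it to glycine, or carry the carbon unit so released on folate. PCK2 makes phosphoenolpyruvate, from which carbon can reach serine. It was known beforehand that PSAT1 moved in opposite directions in the 2 cell lines. With that knowledge, all 10 were chosen by name from the 62280 genes listed in either count table. Each was found by symbol in the Du145 table and by the same Ensembl identifier in the C42 table. Because the palbociclib response took part in the choice, the members' fold changes are given as a description, with standard errors (SE) and without p-values.

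The series asked how the kinases CDK4 and CDK6 act on STING signalling in prostate cancer cells, and how far this depends on RB1. RNA was sequenced after treatment with palbociclib, an inhibitor of CDK4 and CDK6, or with its solvent dimethyl sulfoxide (DMSO). The libraries fell into Du145 with palbociclib (3), Du145 with DMSO (3), C42 with palbociclib (3) and C42 with DMSO (2 used, since the column for replicate 3 held 0 for every gene). All cells were kept in serum-supplemented RPMI medium. The genotype field of the labels holds only the treatment, and neither the palbociclib dose nor its duration is given in the sources used here. Du145, established from a prostate cancer metastasis in the brain, is known to carry no functional RB1, and C4-2, taken here to be the line labelled C42, is a castration-resistant derivative of LNCaP. The status of RB1 is background knowledge of these lines and was not measured.

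Serine is made from 3-phosphoglycerate in a short chain of reactions, and serine hydroxymethyltransferases then split it into glycine and a folate-bound carbon unit. That unit is oxidised or reduced along parallel cytosolic and mitochondrial routes and ends in purines, thymidylate, methionine, formate or carbon dioxide. Several of these genes, PHGDH, PSAT1, PSPH, SHMT2, MTHFD2, ALDH1L2 and PCK2 among them, are known targets of ATF4, the transcription factor of the amino-acid stress response, and proliferating cancer cells are known to use the pathway heavily.

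Totals were 16108999 to 16674393 counts in libraries labelled Du145 and 2608851 to 3489659 in those labelled C42, so that rare transcripts were measured less precisely in C42. Values are counts scaled to the library total (CPM), and 3 counts, the limit that a count of 0 allows, correspond to 0.18 to 0.186 CPM in Du145 and 0.86 to 1.15 CPM in C42. In Du145 both libraries numbered 3 stood apart from their group: the chi-square of counts between libraries of a group, per degree of freedom, was 5.41 to 8.34 in pairs with them, against 2.36 and 2.37 in the other pairs and 1.14 to 1.18 in C42. The C42 libraries held no counts of KLK3, KLK2, ACP3 and FOLH1, which define luminal prostate cells, and 19670 ± 1109 CPM of the mesenchymal gene FN1 (SD, n = 5). The luminal transcripts thus went against the C42 label. In Du145, KLK3, KLK2, FOLH1 and TMPRSS2 were at 0. In both lines the groups are therefore called by their labels.

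All 10 members were lower with palbociclib in Du145, whereas 6 of the 9 that could be tested in C42 were higher. In Du145 the 10 log2 fold changes ran from -1.43 to -0.23 with a median of -0.67, beside a median of -0.0074 over all 15361 genes tested there. All 10 passed edgeR's quasi-likelihood test with Benjamini-Hochberg adjustment at 0.05, as did 29.2% of all tested genes in that direction, with 28.8% called higher and 58.1% called in either. In C42, PSAT1, PSPH, SHMT2, MTHFD2, ALDH1L2 and PCK2 were higher, against 25.2% of tested genes, SHMT1 and MTHFD1 were lower, against 26.6%, and MTHFD1L was not called, where 51.8% of genes were called in either direction. These C42 shares rest on 6184 calls by edgeR, and DESeq2 made 3793, while it made the same calls for the members. The C42 median was 0.69, beside 0.0015 over all 11943 genes tested. PHGDH had too few counts to be tested in C42. The pattern of lower in Du145 with higher in C42 held for 6 of 9 members and for 7.43% of the 11007 genes tested in both lines, and lower in both held for 2 members and 8.67%. Palbociclib and DMSO libraries did not overlap in CPM for all 10 members in Du145, as for 33.4% of tested genes in the lower direction, and in C42 for the 6 higher members (35.8%) and the 2 lower ones (30.3%). The rule used these contrasts, so nothing is read from the members' shares. In bulk RNA, fewer cells that express a gene and less of its RNA per cell cannot be told apart.

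**Figure D1:**
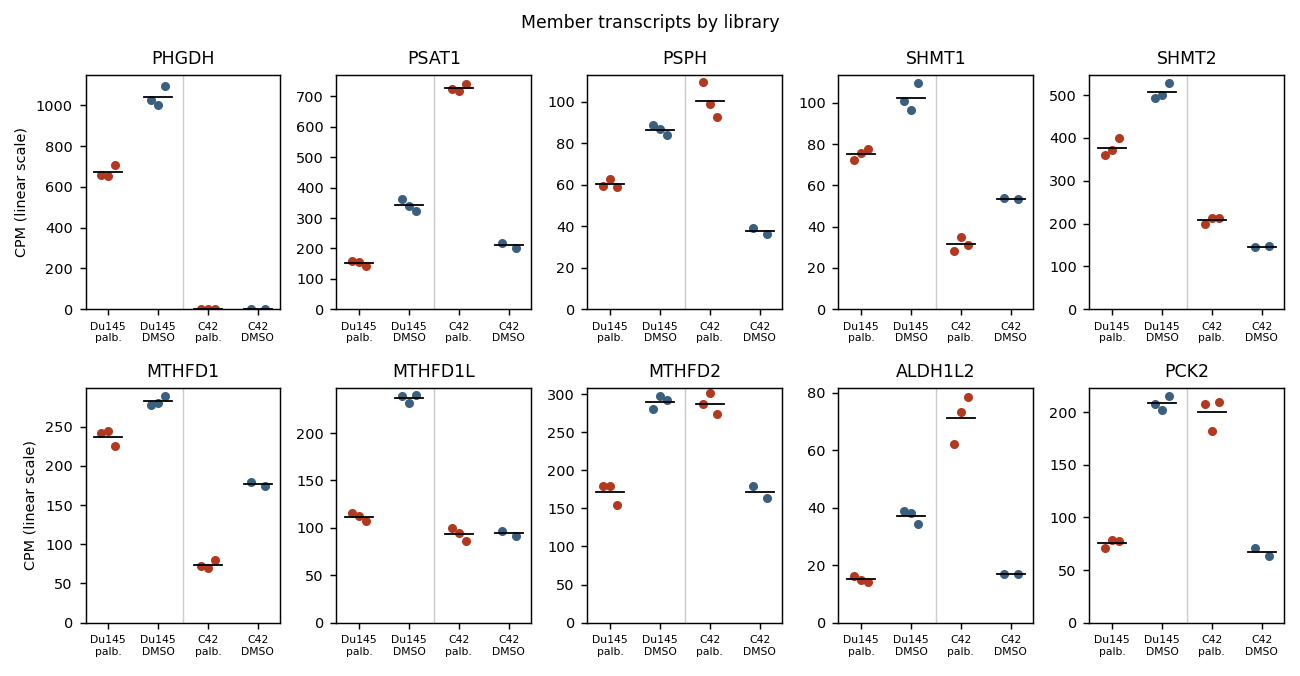
Counts scaled to the library total (CPM, linear axis) of each member in every library, with palbociclib left of DMSO in each line; points are libraries and horizontal lines are group means. In Du145 every palbociclib point lies below every DMSO point, and in C42 PSAT1, PSPH, SHMT2, MTHFD2, ALDH1L2 and PCK2 lie above.

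The sequence upstream of PSAT1 and MTHFD2, which went opposite ways in the lines, of SHMT1, which was lower in both, and of PHGDH, which was abundant in Du145 and nearly absent from C42, is shown for orientation. Each run is the 250 bases before a RefSeq transcription start (GRCh38.p14), 5′ to 3′ on the gene's strand, with the letters CCAAT, or ATTGG for the other strand, in capitals. PSAT1 is at chr9:78296875-78297124 (+), MTHFD2 at chr2:74198365-74198614 (+), SHMT1 at chr17:18363551-18363800 (-) and PHGDH at chr1:119711684-119711933 (+).
PSAT1: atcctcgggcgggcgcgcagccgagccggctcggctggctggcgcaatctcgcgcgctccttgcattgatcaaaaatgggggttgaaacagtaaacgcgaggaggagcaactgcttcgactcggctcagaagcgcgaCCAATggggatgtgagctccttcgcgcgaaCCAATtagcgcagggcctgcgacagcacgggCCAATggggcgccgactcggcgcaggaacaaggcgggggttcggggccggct
MTHFD2: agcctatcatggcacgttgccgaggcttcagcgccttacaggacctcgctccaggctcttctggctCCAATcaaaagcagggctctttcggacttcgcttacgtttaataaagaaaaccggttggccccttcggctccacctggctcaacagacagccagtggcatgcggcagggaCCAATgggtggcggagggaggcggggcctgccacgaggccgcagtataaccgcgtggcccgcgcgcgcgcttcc
SHMT1: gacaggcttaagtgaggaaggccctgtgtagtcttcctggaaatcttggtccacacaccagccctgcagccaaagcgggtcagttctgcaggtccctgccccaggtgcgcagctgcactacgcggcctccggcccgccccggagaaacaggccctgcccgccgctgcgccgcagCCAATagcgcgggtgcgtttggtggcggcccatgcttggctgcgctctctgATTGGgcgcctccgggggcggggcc
PHGDH: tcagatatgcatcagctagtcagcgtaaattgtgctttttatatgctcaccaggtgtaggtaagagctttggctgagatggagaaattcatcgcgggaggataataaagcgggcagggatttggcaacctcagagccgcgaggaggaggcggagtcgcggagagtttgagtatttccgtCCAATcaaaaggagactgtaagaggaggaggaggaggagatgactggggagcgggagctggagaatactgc
The CCAAT letters were searched after the sequences had been seen. They occurred, on either strand, in the windows of 7 of 7 members that the RefSeq promoter table holds (250 bases before to 50 after a start), and in 39.7% of the 27305 genes in that table. PSAT1 had 3 copies before its start, and 3 or more were found in 3.92% of all genes, while the run of PHGDH held 1 copy and those of MTHFD2 and SHMT1 held 2 each.

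A second search used TGATGNAA, the core of the composite element bound by ATF4 with CEBP proteins, on either strand. It matched 1 of the 7 members, MTHFD1L, and 4.46% of all genes in the table. The match is shown because it was the only one among the members, with the 8 matching letters in capitals, at chr6:150866346-150866375 (+).
MTHFD1L: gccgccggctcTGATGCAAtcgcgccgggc
No CCAAT match overlapped it. The windows of PHGDH, PSAT1, SHMT1, MTHFD1, MTHFD2 and PCK2 do not hold these letters, which says nothing of sites elsewhere in those genes. The windows of the 7 members ranged from 40.7% GC, at an internal MTHFD1L start, to 76.7%, at another MTHFD1L start, beside a median of 58.7% over all windows. These matches describe sequence and are not binding sites.

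PHGDH, which oxidises 3-phosphoglycerate in the first and committed step of serine synthesis (ENSG00000092621, chr1:119648411-119744226 in the Du145 table, hg38), was abundant in Du145. It had 659, 656 and 707 CPM in the 3 Du145 palbociclib libraries, against 1025, 1002 and 1096 CPM in the 3 DMSO libraries. The groups did not overlap, and the log2 fold change was -0.60 (SE 0.06). In C42, by contrast, PHGDH had 2, 2 and 2 counts in the palbociclib libraries, against 3 and 1 counts in the DMSO libraries. All 5 values are at or under the limit of 3 counts, so no fold change is given. Nearby genes on both sides were detected in those C42 libraries: ZNF697 had 154 to 172 counts with palbociclib, against 144 to 180 with DMSO, and NOTCH2 had 1962 to 2457, against 1665 to 1944.

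PSAT1, the transaminase of the second step (ENSG00000135069, chr9:78297143-78330093), went opposite ways. It had 159.5, 156 and 142 CPM in Du145 palbociclib libraries, against 362, 341 and 322 CPM in Du145 DMSO libraries. The 3 treated libraries were all lower, with a log2 fold change of -1.14 (SE 0.07). In C42 it had 725, 718 and 742 CPM with palbociclib, against 219 and 202 CPM with DMSO, a log2 fold change of 1.74 (SE 0.04). The PSAT1 level with DMSO was thus lower in C42 than in Du145, and the level with palbociclib was higher, in tables that were counted and scaled separately. The Du145 response minus the C42 response was -2.85 (SE 0.09).

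PSPH, the phosphatase that releases serine in the last step (ENSG00000146733, chr7:56011051-56051604), had 59.5, 62.7 and 58.8 CPM in Du145 palbociclib libraries, against 88.9, 86.7 and 84.0 CPM with DMSO (log2 fold change -0.50, SE 0.07). In the C42 libraries there were 109, 98.9 and 92.7 CPM with palbociclib, against 39.3 and 36.5 CPM with DMSO (1.35, SE 0.10). The groups did not overlap in either line. PSPH has a near-identical pseudogene, PSPHP1, that can take or give reads: PSPHP1 had 121 to 143 counts with palbociclib in Du145, against 138 to 167 with DMSO, and 0 in every C42 library. PSPH itself had 981 to 1033 counts in Du145 palbociclib libraries, against 1378 to 1432 with DMSO.

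Of the serine hydroxymethyltransferases, which move a carbon unit from serine to tetrahydrofolate and leave glycine, the cytosolic SHMT1 was lower in both lines. SHMT1 (ENSG00000176974, chr17:18327860-18363563) had 72.3, 75.8 and 77.5 CPM in Du145 palbociclib libraries, against 101, 96.5 and 109.7 CPM with DMSO (log2 fold change -0.42, SE 0.07). The C42 libraries held 28.4, 34.9 and 31.1 CPM with palbociclib, against 53.9 and 53.4 CPM with DMSO (-0.82, SE 0.12). Neither line showed overlap between groups. SHMT1 lies beside SMCR8 on the opposite strand, with overlapping annotation, and the C42 counts were made without strand. SMCR8 had 4059 to 4478 counts in Du145 palbociclib libraries, against 1249 to 1398 with DMSO, and 266 to 353 in C42 palbociclib libraries, against 198 to 292 with DMSO.

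The mitochondrial SHMT2 (ENSG00000182199, chr12:57229327-57234935) had 361, 372 and 400 CPM in Du145 palbociclib libraries, where the last value is from replicate 3, against 493, 501 and 529 CPM with DMSO (log2 fold change -0.40, SE 0.06). In C42 it had 199, 213 and 213 CPM with palbociclib, against 146 and 147 CPM with DMSO (0.46, SE 0.06). SHMT2 was the smallest of the 6 rises in C42, and its groups did not overlap in either line. Its neighbour on the opposite strand, NDUFA4L2, had 533 to 618 counts in Du145 palbociclib libraries, against 734 to 940 with DMSO, and at most 1 in C42.

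Among the folate-interconverting enzymes, MTHFD1, the cytosolic enzyme that combines several steps between formate and methylene-tetrahydrofolate (ENSG00000100714, chr14:64388031-64463457), had the smallest change in Du145 and the largest fall in C42. MTHFD1 had 241, 245 and 226 CPM in Du145 palbociclib libraries, against 278, 280.1 and 289 CPM with DMSO (log2 fold change -0.23, SE 0.06). Its C42 values were 72.0, 69.8 and 79.9 CPM with palbociclib, against 179 and 174 CPM with DMSO (-1.30, SE 0.07). Both lines had all palbociclib libraries below all DMSO libraries, and the Du145 response minus the C42 response was 1.11 (SE 0.10). ZBTB25, which overlaps MTHFD1 on the opposite strand, had 53 to 79 counts in C42 palbociclib libraries, against 39 to 42 with DMSO.

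MTHFD2, the mitochondrial dehydrogenase and cyclohydrolase (ENSG00000065911, chr2:74198562-74217565), had 180.0, 179 and 155 CPM in Du145 palbociclib libraries, against 281, 298 and 293 CPM with DMSO (log2 fold change -0.74, SE 0.07). In C42 it had 288, 301 and 274 CPM with palbociclib, against 180.0 and 164 CPM with DMSO (0.69, SE 0.06). MTHFD2 thus went the way of PSAT1 in each line, and its groups were separate in both. Of its processed pseudogenes, MTHFD2P1 had 3 to 10 counts in C42 palbociclib libraries, against 2 to 6 with DMSO.

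MTHFD1L, which releases formate from formyl-tetrahydrofolate in mitochondria (ENSG00000120254, chr6:150865549-151101887), had 116, 112 and 108 CPM in Du145 palbociclib libraries, against 239, 232 and 240.0 CPM with DMSO (log2 fold change -1.06, SE 0.06). In the C42 libraries it had 99.7, 94.3 and 86.1 CPM with palbociclib, against 96.9 and 91.9 CPM with DMSO (-0.07, SE 0.08). Its C42 groups overlapped, and it was the one tested member without a call there. The Du145 response minus the C42 response was -0.96 (SE 0.11).

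ALDH1L2, which oxidises formyl-tetrahydrofolate to carbon dioxide and makes NADPH in mitochondria (ENSG00000136010, chr12:105019784-105084577), had the lowest level per length of the members in Du145. It had 16.1, 14.9 and 14.2 CPM in Du145 palbociclib libraries, against 38.9, 38.1 and 34.4 CPM with DMSO (log2 fold change -1.28, SE 0.09). In C42 it had 62.3, 73.2 and 78.5 CPM with palbociclib, against 16.9 CPM in each of the 2 DMSO libraries (2.03, SE 0.13). This was the largest rise among the members, and the groups were separate in both lines. C12orf45, which overlaps it on the opposite strand, had 25 to 40 counts in C42 palbociclib libraries, against 41 to 47 with DMSO. In Du145 C12orf45 had 250 to 270 counts with palbociclib, against 246 to 292 with DMSO. The part of its reads in the ALDH1L2 values was not tested.

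PCK2, the mitochondrial enzyme that turns oxaloacetate into phosphoenolpyruvate, from which carbon can reach serine (ENSG00000100889, chr14:24094053-24110598), showed the largest fall in Du145. It had 71.3, 78.6 and 78.0 CPM in Du145 palbociclib libraries, against 208, 202 and 216 CPM with DMSO (log2 fold change -1.43, SE 0.07). The C42 libraries held 208, 182 and 210.2 CPM with palbociclib, against 70.5 and 63.0 CPM with DMSO (1.54, SE 0.08). The palbociclib level in C42 was close to the DMSO level in Du145, at 182 to 210.2 CPM and 202 to 216 CPM, in tables that were counted separately. PCK1, its cytosolic counterpart, had no counts in any library, which allows up to the 3-count limits given above.

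**Figure D2:**
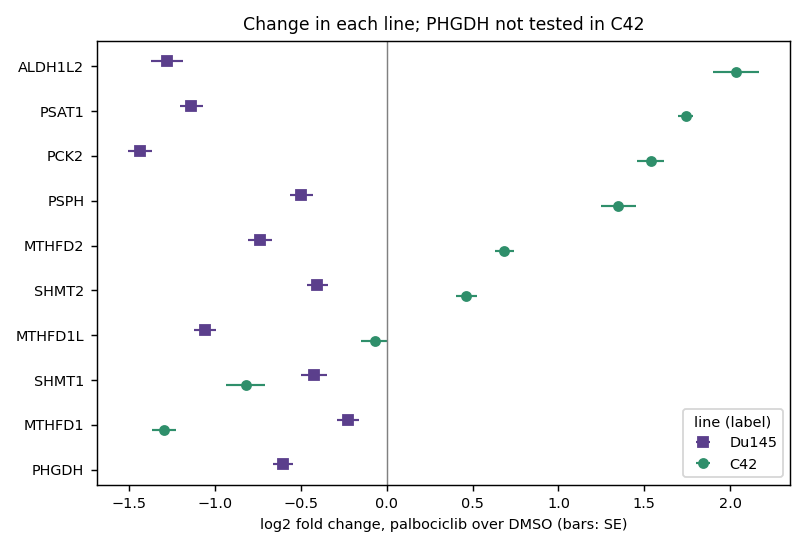
Log2 fold change, palbociclib over DMSO, of each member in Du145 and C42, with bars of 1 SE from the edgeR fits. The Du145 points run from -1.43 to -0.23 and the C42 points from -1.30 to 2.03; PHGDH has no C42 point.

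The difference between the lines was taken from a joint fit with line, treatment and their interaction, in which 33.4% of 18139 genes were called. Of the 9 members tested in both lines, 7 had the lower response in Du145, beside 15.0% of genes tested. The other 2, SHMT1 and MTHFD1, had the higher, beside 18.4%. In the separate fits 11007 genes were tested in both lines. The joint shares therefore include genes with few counts in 1 line or both, for which a difference is hard to call. The widest gaps were those of ALDH1L2 at -3.28 (SE 0.18), PCK2 at -2.93 (SE 0.12) and PSAT1 at -2.85. Of the other members with the lower response in Du145, PSPH was at -1.82 (SE 0.13), MTHFD2 at -1.39 (SE 0.10), MTHFD1L at -0.96 and SHMT2 at -0.83 (SE 0.09). For SHMT1 the gap was 0.43 (SE 0.14), and its call was lost with library totals (0.33), with DESeq2 (0.39), without C42 palbociclib replicate 1 (0.35) and without C42 DMSO replicate 1 (0.42). PHGDH entered the joint fit through its Du145 counts, with 1 to 3 counts per library in C42. No difference between the lines is therefore read for it. With both Du145 libraries numbered 3 left out, the Du145 fold changes were -0.60 for PHGDH, -1.13 for PSAT1, -0.50 for PSPH, -0.39 for SHMT1, -0.415 for SHMT2, -0.17 for MTHFD1, -1.02 for MTHFD1L, -0.66 for MTHFD2, -1.29 for ALDH1L2 and -1.43 for PCK2, all still called lower.

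Levels can be set side by side between genes only per length, here as CPM per kilobase of the gene length in the Du145 table. In Du145 palbociclib libraries SHMT2 (mean 78.0), PHGDH (73.1) and PSAT1 (69.7) led, each overlapping its neighbour in the order, while in Du145 DMSO libraries PSAT1 (156) stood above PHGDH (113) and SHMT2 (105), which overlapped each other. MTHFD2 came next in both groups, at 35.2 with palbociclib, against 59.7 with DMSO. PCK2 was below PSPH with palbociclib, at 18.1 and 21.8, and above it with DMSO, at 49.8 and 31.3. SHMT1 (10.3, against 14.1) and ALDH1L2 (1.77, against 4.37) were lowest in both.

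In C42, PSAT1 was far above all other members per length, at 333 CPM per kilobase with palbociclib, against 96.3 with DMSO. MTHFD2 came second, at 59.05, against 35.3. With palbociclib PCK2 (47.7) overlapped SHMT2 (43.0) and ALDH1L2 (8.38) overlapped MTHFD1 (7.88), whereas with DMSO SHMT2 (30.2), MTHFD1 (18.8) and MTHFD1L (18.8) came before PCK2 (15.9), and ALDH1L2 (1.99) was the lowest of the members with more than a few counts. PHGDH was at 0.0742 with palbociclib, against 0.0646 with DMSO.

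**Figure D3:**
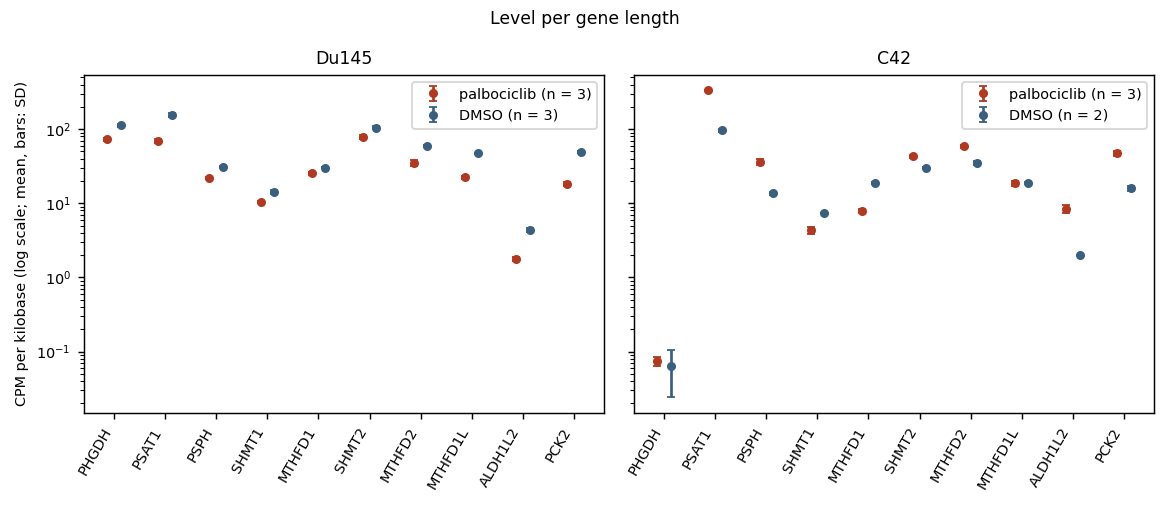
Level of each member per gene length (CPM per kilobase, log axis) in the 4 groups, palbociclib left of DMSO; points are means and bars 1 SD. PSAT1 leads in C42 with palbociclib at 333, against 96.3 with DMSO, and PHGDH lies below 0.1 in C42.

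Ratios between members within a library do not depend on its total. The SHMT2 to SHMT1 ratio per length overlapped between the Du145 groups, at 7.55 ± 0.20 with palbociclib and 7.47 ± 0.297 with DMSO (SD, n = 3 each). In C42 it was 10.0 ± 0.727 with palbociclib (n = 3) and 4.10 ± 0.0523 with DMSO (n = 2), with no overlap. The MTHFD2 to MTHFD1 ratio, mitochondrial over cytosolic, was 1.39 ± 0.0611 with palbociclib and 1.98 ± 0.0564 with DMSO in Du145, and 7.54 ± 0.87 with palbociclib and 1.88 ± 0.0849 with DMSO in C42. It was thus lower with palbociclib in Du145 and higher in C42, and the groups did not overlap in either. MTHFD1L over MTHFD1 was 0.881 ± 0.023 with palbociclib and 1.57 ± 0.0326 with DMSO in Du145, and 2.37 ± 0.315 with palbociclib and 0.998 ± 0.0174 with DMSO in C42, the same directions.

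Within mitochondria, MTHFD2 over MTHFD1L was 1.58 ± 0.0853 with palbociclib and 1.27 ± 0.0564 with DMSO in Du145, and 3.18 ± 0.18 with palbociclib and 1.88 ± 0.0523 with DMSO in C42. This ratio was therefore higher with palbociclib in both lines. PSAT1 over PSPH was 3.19 ± 0.176 with palbociclib and 4.98 ± 0.155 with DMSO in Du145, and 9.21 ± 0.87 with palbociclib and 7.02 ± 0.0346 with DMSO in C42. PHGDH over PSAT1 in Du145 was 1.05 ± 0.113 with palbociclib and 0.726 ± 0.0726 with DMSO. Summed over the 10 members, Du145 libraries held 1936 to 1965 CPM with palbociclib, against 3077 to 3213 CPM with DMSO, and C42 libraries held 1785 to 1808 CPM with palbociclib, against 949 to 1002 CPM with DMSO. PHGDH made up 34.5% ± 1.25 of that sum of reads with palbociclib and 33.2% ± 0.826 with DMSO in Du145, and at most 0.0858% in any C42 library.

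**Figure D4:**
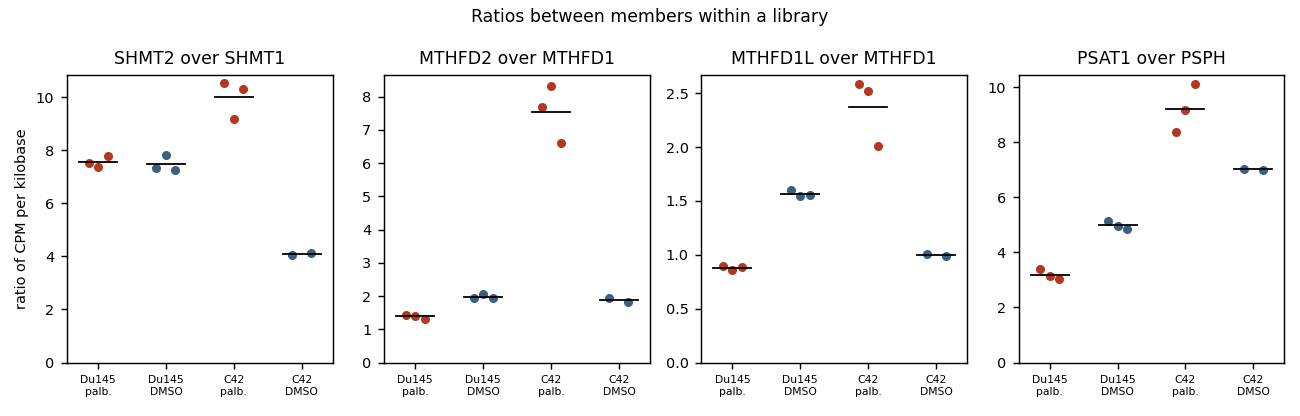
Ratios of CPM per kilobase within each library for SHMT2 over SHMT1, MTHFD2 over MTHFD1, MTHFD1L over MTHFD1 and PSAT1 over PSPH, palbociclib (palb.) left of DMSO in each line; points are libraries and lines are group means. MTHFD2 over MTHFD1 averages 1.39 with palbociclib and 1.98 with DMSO in Du145, and 7.54 with palbociclib and 1.88 with DMSO in C42.

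The genes whose profile over the 11 libraries lay nearest to that of PSAT1 were found by the root mean square distance of log2 CPM, centred within each line, among 9525 genes with a mean of at least 5 CPM in each line. The nearest were CCDC18-AS1 (distance 0.11), LINC00662 (0.12), ALDH1L2 (0.13), LUCAT1 (0.13), OAS1 (0.14) and PCK2 (0.16), beside a median of 0.76 over all genes compared. CCDC18-AS1 is an antisense gene, which counting without strand does not separate from its partner. PSPH was 37th (0.28), MTHFD2 131st (0.38), SHMT2 616th (0.51) and MTHFD1L 1531st (0.60), while SHMT1 was 7648th (0.89) and MTHFD1 9129th (1.06). The distance reflects the same treatment response that led to the choice of PSAT1 and is given as a description.

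Genes around the pathway were read from 6 lists with 72 genes, of which 65 were tested in Du145 and 63 in C42. In Du145 15 were higher and 27 lower, and in C42 23 were higher and 18 lower, by edgeR's adjusted p under 0.05, and each gene said to have risen or fallen passed that threshold. Over all tested genes 28.8% were higher and 29.2% lower in Du145, and 25.2% higher and 26.6% lower in C42, and counts near these shares say nothing of a list. With the replicate block 54 of the list genes were called in Du145, against 42 without it. In the list of glycine cleavage and folate handling, Du145 had 6 higher and 4 lower of 19 (median log2 fold change 0.16) and C42 had 2 higher and 6 lower of 16 (-0.07), with 4 higher when library totals replaced TMM. FOLR1, a folate receptor, rose in Du145 to 3717 ± 60.7 CPM with palbociclib, against 1598 ± 40.8 CPM with DMSO (log2 fold change 1.24, SE 0.05, edgeR adjusted p = 4.66e-12), whereas in C42 it averaged 4.27 CPM with palbociclib, against 6.63 CPM with DMSO (edgeR adjusted p = 0.088). SFXN1, a mitochondrial serine carrier, rose in Du145 (0.56, adjusted p = 8.68e-07) and fell in C42 (-0.39, adjusted p = 0.000182). DLD, shared by glycine cleavage and the ketoacid dehydrogenases, fell in Du145 (-0.97).

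FTCD, of histidine breakdown, rose in Du145 at a low level, to 1.51 ± 0.434 CPM in palbociclib libraries, against 0.719 ± 0.14 CPM in DMSO libraries (log2 fold change 1.08, edgeR adjusted p = 0.014). Its call was lost without palbociclib replicate 1 (edgeR adjusted p = 0.0914) and without DMSO replicate 2 (0.0662). In C42 TYMS, thymidylate synthase, fell to 19.6 ± 2.47 CPM with palbociclib, against 75.5 ± 3.43 CPM with DMSO (log2 fold change -1.97, SE 0.12, edgeR adjusted p = 2.99e-18). FPGS, which adds glutamates to folate, fell by 0.76 on the log2 scale in C42.

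Purine synthesis genes, which use formyl-tetrahydrofolate, were mostly lower in C42, at 5 of 6 with a median of -0.67, while in Du145 1 was higher and 2 lower (median -0.16). With the replicate block 2 were higher and 3 lower in Du145, GART and ATIC being added, and 2 were higher without palbociclib replicate 3 or without both libraries numbered 3. PAICS fell to 223 ± 3.1 CPM with palbociclib in C42, against 396 ± 7.50 CPM with DMSO (log2 fold change -0.88, SE 0.05, edgeR adjusted p = 4.66e-20), and PFAS (-1.02), ADSL (-1.12) and PPAT (-0.45) also fell there. In Du145 PPAT, of the first step, rose (0.84) and PFAS fell (-0.75). The Du145 change of PAICS (-0.19, edgeR adjusted p = 0.0203) lost its call without palbociclib replicate 3 (0.0689), DMSO replicate 1 (0.0529) or DMSO replicate 2 (0.0885). In the methionine cycle, Du145 had 1 higher and 3 lower of 7 (median -0.08) and C42 had 1 of each of 8 (median -0.02). AHCY, which clears S-adenosylhomocysteine, fell in both lines (-0.64 in Du145 and -0.65 in C42), AMD1, of polyamine synthesis, rose in Du145 (0.89), MAT2B (-0.32) and AHCYL1 (-0.22) fell there, and AHCYL2 rose in C42 (0.60).

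Of 14 tested serine transporters and serine-using enzymes, 9 were higher in C42 (median 0.44), where 25.2% of all tested genes were, and 5 did not pass the test. In Du145 5 of 14 were higher and 6 lower (median -0.02). SLC1A4, a neutral amino acid transporter that carries serine, fell to 48.8 ± 2.19 CPM in Du145 with palbociclib, against 95.0 ± 3.27 CPM with DMSO (log2 fold change -0.94, SE 0.07). In C42 it rose to 216 ± 12.7 CPM, against 121.5 ± 7.26 CPM with DMSO (0.77, SE 0.06), each with an edgeR adjusted p below the threshold (8.02e-09 in Du145 and 1.18e-13 in C42). SLC38A1 rose in both (0.87 in Du145 and 1.01 in C42), SLC38A2 (0.58) and SERINC3 (0.59) rose in C42, and SDSL (-1.24) and SPTLC3 (-1.65, at 2.90 CPM with DMSO) fell in Du145. Of the three-carbon neighbours, 2 of 6 fell in Du145 (PGK1 -0.19, PC -0.84) and 5 of 6 in C42 (medians -0.02 in Du145 and -0.33 in C42), among them ENO1 (-0.46), PGAM1 (-0.35), PKM (-0.31) and PC (-0.57, edgeR adjusted p = 0.00875, lost with DESeq2 at 0.127 and without C42 DMSO replicate 2 at 0.066). Their Du145 count depended on the fit: with the replicate block 3 were higher (PGAM1 at 0.09, PKM at 0.10 and ENO2 at 0.15) and 3 lower (ENO1, at -0.12, as well), 3 were higher without both libraries numbered 3, and 2 were higher without DMSO replicate 3.

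Of 13 ATF4 and stress genes outside the pathway, 10 were lower and 2 higher in Du145 (median -0.79), where 29.2% and 28.8% of all tested genes were. In C42 11 were higher and 1 lower (median 1.12), where 25.2% and 26.6% were, with 2 lower without palbociclib replicate 1. This list repeats in part what was known of these data when it was drawn up and is no independent evidence of direction. ATF4, named outside the rule for named genes, averaged 287 CPM with palbociclib and 373 CPM with DMSO in Du145 (-0.35, SE 0.06), and 434 CPM with palbociclib and 283 CPM with DMSO in C42 (0.57, SE 0.05). CHAC1, which degrades glutathione, fell to 3.34 ± 1.02 CPM in Du145 with palbociclib, against 18.95 ± 0.645 CPM with DMSO (-2.48, SE 0.16), and in C42 it rose to 48.0 ± 3.22 CPM, against 10.9 ± 0.399 CPM with DMSO (2.08, SE 0.15). ASNS, asparagine synthetase, fell in Du145 (-1.34) and rose in C42 (2.58, SE 0.37, with means of 10.75 CPM in palbociclib and 1.69 CPM in DMSO libraries). SESN2 (-1.65) and GPT2 (-1.53) fell in Du145, and NUPR1 (2.21) and DDIT3 (1.88) rose in C42. The 2 genes called higher in Du145 were NUPR1 (0.36), which thus rose in both lines, and ATF5 (0.80), also named outside the rule.

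**Figure D5:**
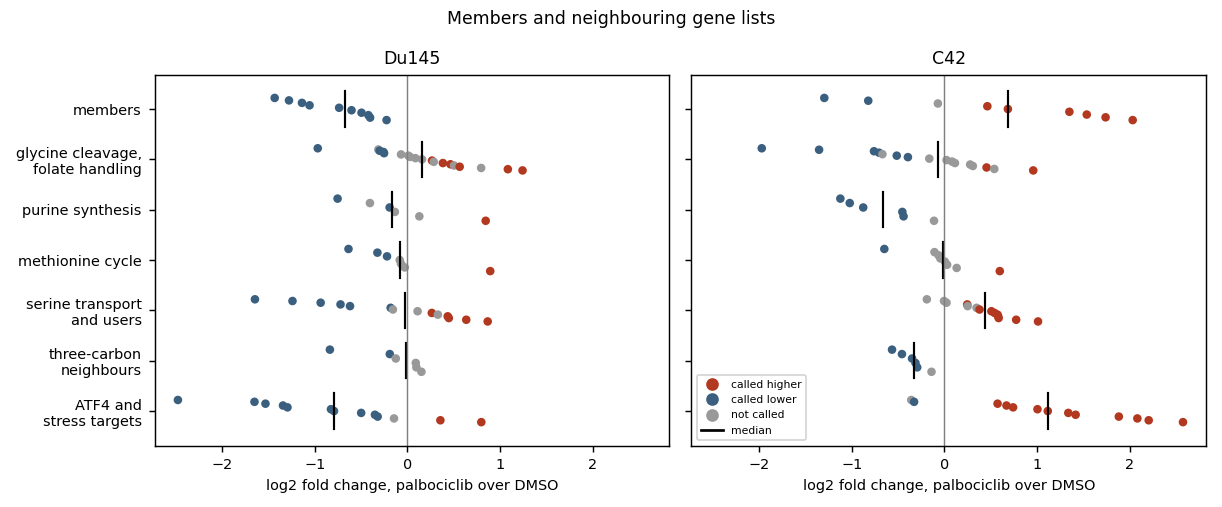
Log2 fold change, palbociclib over DMSO, of each tested gene among the members and in the 6 neighbouring lists, in Du145 and C42; red and blue points were called higher and lower by edgeR (adjusted p under 0.05), grey points were not called, and black lines are medians. In the ATF4 and stress list 10 of 13 genes are lower in Du145 and 11 of 13 are higher in C42.

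Other measures were read in the same libraries, and some of them, though not all, differed between the treatments. The mitochondrially encoded share of counts was 3.07 to 3.37% with palbociclib, against 4.40 to 4.92% with DMSO, in Du145, and all 37 such genes were at 0 in C42. Summed CPM of 5 simple epithelial markers was 2068 to 2213 with palbociclib, against 3221 to 3563 with DMSO, in Du145, and 412 to 447 with palbociclib, against 1045 to 1053 with DMSO, in C42. Of 8 luminal prostate markers 4 were at 0 in each line and the sum was 11.8 to 15.2 CPM with palbociclib, against 22.7 to 29.6 CPM with DMSO, in Du145, and 26.6 to 31.8 with palbociclib, against 29.8 to 30.8 with DMSO, in C42. The sum of 6 mesenchymal markers was 319 to 334 CPM with palbociclib, against 364 to 376 CPM with DMSO, in Du145, and 24680 to 24970 with palbociclib, against 27080 to 27140 with DMSO, in C42. Of 3 leukocyte markers, PTPRC and CD3E were at 0 in Du145 and CD68 in C42, and the sum stayed at or below 0.121 CPM in Du145 and 1.66 CPM in C42. The part of these shifts in the members' values was not tested. Leaving out the mitochondrially encoded genes changed no member's call.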

How the data were processed

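RNA sequencing libraries of the lines labelled Du145 and C42 were analysed from 2 deposited tables of raw counts per gene, 1 per line. Per the file headers, the C42 counts were made by the authors with featureCounts 2.0.1 on paired reads over Ensembl 107 exons, with no strand option, from alignments whose names point to HISAT. The library kit marks strand, so antisense partners are not separated there. How the Du145 reads were aligned and counted is not given in the sources used here. Per the submitters' processing notes the build is hg38. Du145 columns named inhibitor and Control were taken as the palbociclib and DMSO libraries of the same number. Unmatched columns numbered 0. C42 DMSO replicate 3 was 0 throughout and was left out, so 3 C42 palbociclib libraries were set against 2 DMSO libraries instead of the planned 3.

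Counts were fitted per line, and jointly for the 56747 genes in both tables, with edgeR 4.0.16 in R 4.3.3: filterByExpr by group, TMM, the quasi-likelihood test and Benjamini-Hochberg adjustment at 0.05 over all tested genes. DESeq2 1.42.0 was an alternative, as were other scalings and filters, a replicate block and leaving out libraries. SE was derived from the coefficient and its F statistic. No label tells whether replicates are separate cultures, and p-values then reflect only the spread among these libraries, possibly a technical one. Deviations from group means correlated at 0.131, 0.215 and 0.438 between same-numbered Du145 libraries over 11926 genes, all above 0.1, so the numbers were taken to pair them, from the data and not from the labels. The main fits, which gave the fold changes, SE and calls, left this pairing out, and the replicate block was run as an alternative. Palbociclib 1 with DMSO 2 gave 0.2325 and palbociclib 2 with DMSO 1 gave 0.099, while pairs of a library numbered 3 with another number gave -0.346 to -0.1785, so the check mainly sets the libraries numbered 3 apart. In C42 the correlations were 0.00178 and -0.0107. Limits of 3 counts cover counting error only. The tests were also run on simulated counts of independent libraries, with the same relative spread beyond counting error for every gene. Such counts lack the distance of the Du145 libraries numbered 3 from their groups. That run therefore checks the code and not the calls in these data.

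The members and lists were chosen with earlier results of these data known. The text names all members, per list and line the 4 called genes with the largest absolute log2 fold change, and the 6 genes nearest to PSAT1, except that a few named by this rule are not reported. Promoter windows came from a RefSeq table of GRCh38.p14, which matched 7 of 10 members by symbol. PSPH, SHMT2 and ALDH1L2 have no window there.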

Additional observations from a re-analysis of the deposited data

Results flagged for a closer look

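For 9 members the response to palbociclib differed between the lines by the interaction of line and treatment in the joint edgeR fit of all genes. The members were chosen with such differences known, so these values are a description. As the Du145 log2 fold change minus the C42 one, ALDH1L2 had -3.28, PCK2 -2.93, PSAT1 -2.85, PSPH -1.82, MTHFD2 -1.39, MTHFD1L -0.96 and SHMT2 -0.83. In these 7 the Du145 response was the lower. MTHFD1 had 1.11 and SHMT1 0.43, the members with the lower response in C42. For PSAT1, PSPH, SHMT2, MTHFD2, ALDH1L2 and PCK2 every palbociclib library was below every DMSO library in Du145 and above in C42. The lines lie in tables that were counted separately, and line and table cannot be told apart.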

How the results depend on the processing

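Over all alternatives run, 425 values of the members kept their direction and side of the threshold, and 4, all of the SHMT1 difference between lines, kept the direction and lost the call. As a result 1 member in place of 2 had the higher response in Du145 with library totals, with DESeq2, and in the range of 1 to 2 on leaving out 1 library. The 425 values include the PHGDH difference between the lines and the MTHFD1L change in C42, which were not called in any setting. The PHGDH difference rests on 1 to 3 counts per library in C42 and ranged from -1.53 to -0.17. Of the values of other named genes 528 were kept and 7 lost their call (FTCD, PAICS, PC). In C42 DESeq2 called 3793 genes (1800 higher and 1993 lower), where edgeR called 6184 (3011 and 3173); the cause was not tested. With the replicate block 9953 genes were called in Du145, against 8924, and 5699 in C42 and 6037 for the interaction. The block changed no call of a member, nor any call of a gene that the naming rule gave for that line. It did add calls among the other list genes in Du145, for 54 in all against 42 without it. Leaving out 1 library gave 8112 to 9054 calls in Du145, 5035 to 5751 in C42 and 4743 to 6249 for the interaction, while 10 members stayed lower in Du145 and 6 higher and 2 lower in C42. Without both Du145 libraries numbered 3, 9343 genes were called there. The single 8-base form TGATGCAA, in place of TGATGNAA, was found in 1.08% of genes. Totals were lower in C42, which limits rare transcripts there.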
